A study of Mus musculus with 4 samples.

Results

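The Gnas cluster on distal chromosome 2 was described with the 57 probes, of 97179 with a position and no outlier flag, that a CpG island array carries there, from 173927575 to 173974138 on chromosome 2 in the positions of the files. No label or header used here names the genome build of these positions. Probes whose starts lay at most 500 bp apart were joined into a run, which gave 5 runs in the cluster among 14121 runs of at least 3 probes on the whole array. Every one of the 57 probes fell into such a run. The cluster was chosen because large falls in Parp-1 deficient cells were already known at its middle runs, so its differences from wild type are given as a description with no test.

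The study compared 4 samples of J1 mouse embryonic stem cells with 1 array each. Parp-1 is an enzyme of the nucleus that builds chains of ADP-ribose on its target proteins, and PJ34 is a small-molecule inhibitor of such enzymes. Genomic DNA was sonicated and methylated fragments were pulled down with an antibody against methylated cytidine (MeDIP). On each array the immunoprecipitated (IP) DNA carried the dye Cy5, and the whole DNA of that sample carried Cy3. The groups were a Parp-1 deficient group of 2 lines made from J1, named 210-58 and 226-47, then J1 cells treated with PJ34, and wild type J1 cells. All share the J1 background. The dose and duration of PJ34, the targeted allele and whether the lines arose independently are not stated in the labels. The value of a probe is the log2 ratio of IP to whole DNA after centring each array on its median probe, so 0 is a typical probe and a difference of 1 is a 2-fold difference in enrichment. It is a relative measure of methylated DNA and not a methylation percentage. Fewer methylated cells and less methylated DNA per cell cannot be told apart.

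Gnas encodes the alpha subunit of the stimulatory G protein, which couples hormone receptors to adenylyl cyclase. The locus is imprinted: several alternative first exons splice to shared downstream exons, and each start has its own parental bias. Nesp, which gives a neuroendocrine secretory protein, is expressed from the maternal copy. Gnasxl, which gives an extra-large form of the G protein subunit, and Nespas, an antisense RNA that runs across Nesp, are expressed from the paternal copy, as is the noncoding exon 1A transcript. In mouse, the Nespas-Gnasxl island and the exon 1A island carry maternal methylation set in the oocyte, Nesp gains paternal methylation after fertilisation, and the island of Gnas exon 1 is known to be free of methylation.

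The runs were named by their order and spacing. In RefSeq (GRCm38) the start of exon 1A lies 43.4 kb and that of Gnas exon 1 lies 45.7 kb downstream of the Nesp start, and the outer end of Gnasas1, the current symbol of Nespas, lies 11.1 kb from it. In the files, the middles of the last 2 runs lay 42.9 kb and 45.3 kb from the middle of the first, and the middle of the next run after the first lay 11.9 kb from it. In order, the runs are called Nesp, short Nespas-Gnasxl, long Nespas-Gnasxl, exon 1A and Gnas exon 1. These names rest on order and on these distances, since no genome of the files' build was used. No distance was compared for the long run or for the Gnasxl start.

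The promoters of 3 Gnas starts, Nesp, exon 1A and Gnas exon 1, are shown as the 250 bases before each start, taken from RefSeq (GRCm38.p6, plus strand). The promoter set used held no entry for Nespas or Gnasxl, so none is shown for the Nespas-Gnasxl runs. Capitals mark CG, the dinucleotide that carries methylation in mammals and reads the same on both strands.
Nesp, chr2:174284070-174284319: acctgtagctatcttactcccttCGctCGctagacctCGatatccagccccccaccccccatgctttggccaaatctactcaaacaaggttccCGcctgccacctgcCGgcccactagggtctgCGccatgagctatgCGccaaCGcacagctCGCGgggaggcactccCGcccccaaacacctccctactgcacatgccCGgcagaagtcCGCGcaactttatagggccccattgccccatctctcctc
Exon 1A, chr2:174327499-174327748: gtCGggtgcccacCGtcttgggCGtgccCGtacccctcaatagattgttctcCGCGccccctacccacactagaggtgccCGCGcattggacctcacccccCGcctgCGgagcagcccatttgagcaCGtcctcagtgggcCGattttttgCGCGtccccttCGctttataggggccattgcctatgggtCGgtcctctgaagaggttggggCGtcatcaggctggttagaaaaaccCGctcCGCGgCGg
Gnas exon 1, chr2:174329756-174330005: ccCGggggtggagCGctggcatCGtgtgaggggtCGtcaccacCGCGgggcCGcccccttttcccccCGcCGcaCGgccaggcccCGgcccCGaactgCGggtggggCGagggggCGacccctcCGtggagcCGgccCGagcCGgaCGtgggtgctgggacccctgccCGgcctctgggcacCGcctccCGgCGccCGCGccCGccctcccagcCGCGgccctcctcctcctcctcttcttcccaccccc
The 250 bases held 14 CG at Nesp, 21 at exon 1A and 29 at Gnas exon 1. Among 32851 RefSeq promoter windows of the same length, 92.1% held at least 1 CG, the median was 6, and 29.4%, 16.3% and 6.78% held at least as many as these 3. Their GC content was 61.6%, 63.2% and 80%.

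The Nespas-Gnasxl island lost its enrichment in both Parp-1 deficient lines. The long run, 22 probes from 173941465 to 173943988, had a mean log ratio of 0.02 in line 210-58, -0.09 in line 226-47, 4.61 after PJ34 and 3.60 in wild type cells. Both lines stood at the level of a typical probe and the other arrays far above it. The lines averaged -0.03 ± 0.08 (SD, n = 2) and differed from wild type by -3.64, so enrichment was 12.4-fold greater in wild type. The difference was -2.65 after normexp background correction and -2.21 after intensity loess. The short run, 3 probes from 173940167 to 173940489, had -0.14 in line 210-58, 0.04 in line 226-47, 4.19 after PJ34 and 3.82 in wild type cells. The lines averaged -0.05 ± 0.13 (SD, n = 2), a difference of -3.87 from wild type, which was -2.71 after normexp and -2.55 after loess. In both runs the lines lay close to each other. Their SD does not measure the error of the fall, since the wild type value comes from 1 array and has no replicate.

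**Figure D1:**
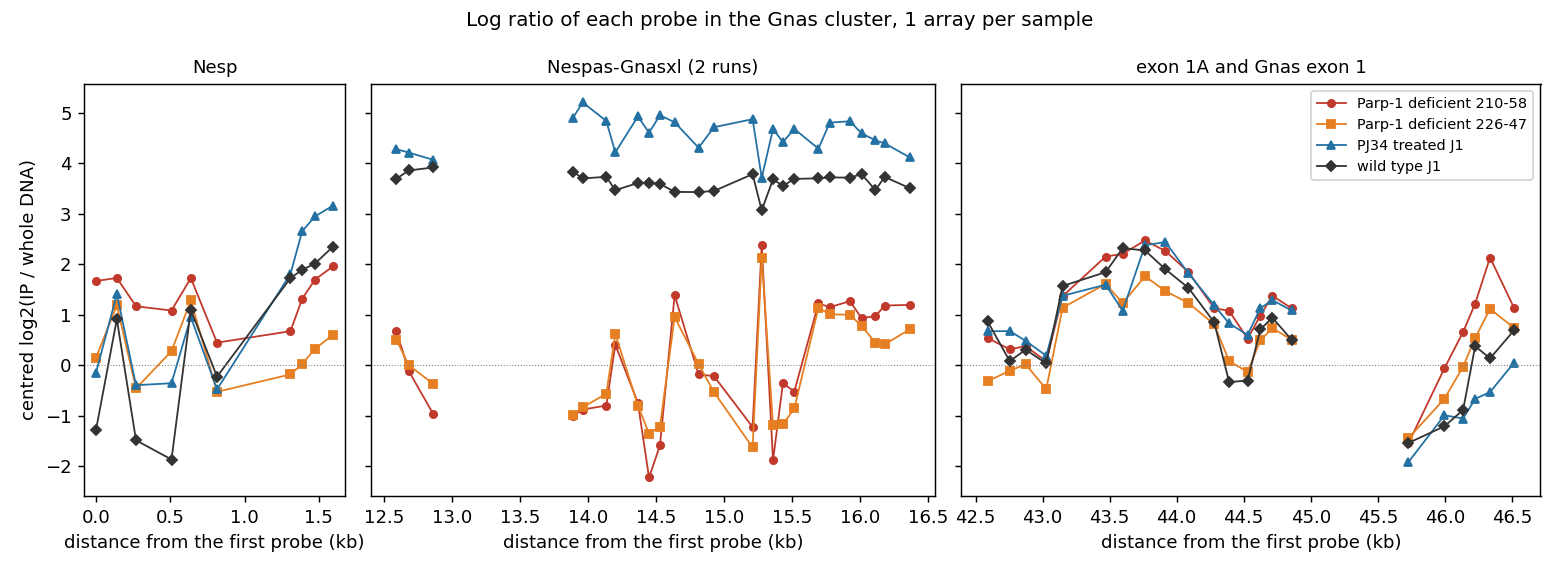
Centred log2 ratio of IP to whole DNA (y axis) of each of the 57 probes against its distance in kb from the first probe of the cluster (x axis), with 1 point per array and lines joining the probes of a run. Both Parp-1 deficient lines run below the PJ34 and wild type arrays at all 25 probes of the Nespas-Gnasxl runs, whereas the 4 arrays overlap across exon 1A.

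The fall was seen at every probe of these runs. All 25 probes were at 3 or above in wild type cells, within a range of 3.07 to 3.92, and all 25 were lower in both lines, where 24 were below 2. In the lines the probes ran from -2.22 to 2.38. The largest difference in the long run was at the probe from 173942024 to 173942068, with -2.22 in line 210-58, -1.36 in line 226-47, 4.61 after PJ34 and 3.62 in wild type cells. Its processed Cy5 signal was 117 in line 210-58 and 186 in line 226-47, against 6439 in wild type cells, whereas its Cy3 signal was 698 and 589, against 631. The difference thus lay in the IP channel, and Cy5 was well above background at all 57 probes on all 4 arrays. The smallest difference was at the probe from 173942852 to 173942896, which kept 2.38 in line 210-58 and 2.13 in line 226-47, beside 3.71 after PJ34 and 3.07 in wild type cells. In the short run the lowest difference was at the probe from 173940433 to 173940489, with -0.97 in line 210-58, -0.37 in line 226-47, 4.07 after PJ34 and 3.92 in wild type cells, and the first probe, from 173940167 to 173940211, kept 0.68 and 0.51 in lines 210-58 and 226-47, beside 4.28 after PJ34 and 3.69 in wild type cells. The probe of the long run that kept most had the highest wild type Cy3 signal of the run, at 1.70 above the array median on the log2 scale. Over the 25 probes of both runs, Pearson r with wild type Cy3 was 0.216 for the mean of the lines. For the wild type log ratio it was -0.608. The part of the Cy3 signal in the differences between probes was not tested.

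The loss was not even along the long run. At its last 7 probes, from 173943269 to 173943988, the lines kept 1.13 (210-58) and 0.79 (226-47) and no probe was below 0 in either line. At the first 15 probes they had -0.50 and -0.49, with 12 and 11 probes below 0. Wild type cells had 3.66 over the last 7 and 3.58 over the first 15, so the lines differed from wild type by -2.70 and -4.07. This division was chosen after the values were seen. The lines followed each other closely from probe to probe (Pearson r = 0.942 over the 25 probes of both runs, across probes that share arrays and fragments). Against wild type cells r was -0.413 for line 210-58, -0.403 for line 226-47 and 0.361 for PJ34 treated cells. Wild type values spanned only 3.07 to 3.92 at these probes, so the r values against wild type say little about a change of order.

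**Figure D2:**
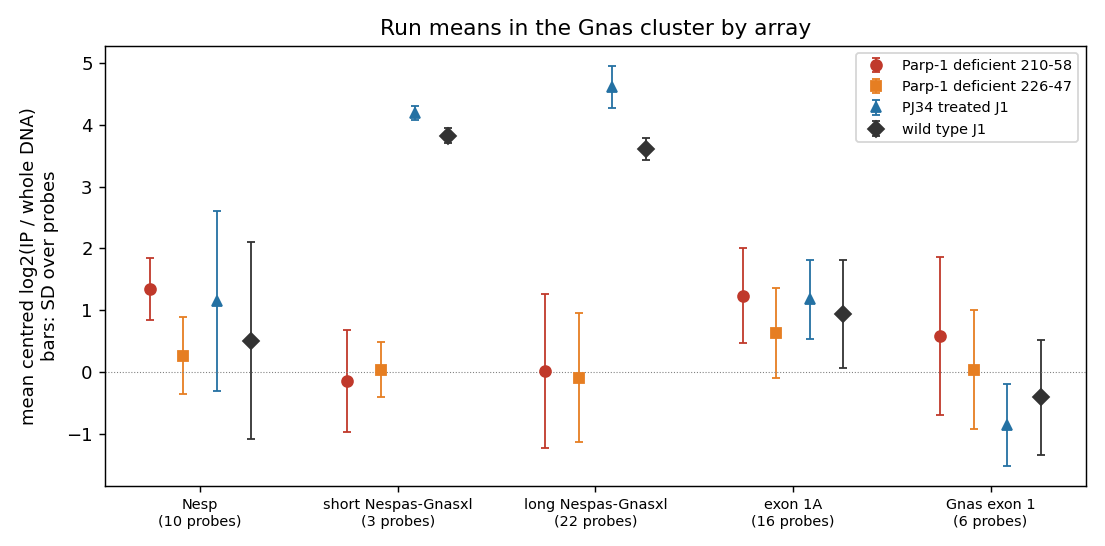
Mean centred log2 ratio of IP to whole DNA (y axis) of the 5 runs (x axis) on each array, with bars of 1 SD over the probes of the run. The lines stand at -0.14 to 0.04 in the Nespas-Gnasxl runs, below 3.82 and 3.60 in wild type cells, and the bars of all arrays overlap at Nesp, exon 1A and Gnas exon 1. The bars are the spread along a run and not the error of an array, so their overlap does not show equal values.

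The exon 1A island, the other maternal mark of the locus, showed no such loss. Its 16 probes from 173970159 to 173972482 had a mean of 1.24 in line 210-58, 0.63 in line 226-47, 1.18 after PJ34 and 0.94 in wild type cells, so the wild type value lay between those of the lines. The lines averaged 0.93 ± 0.43 (SD, n = 2), and their difference from wild type of -0.01 was less than the spread between them. Enrichment was highest around the middle of the run on every array: the probe from 173971339 to 173971383 had 2.47 in line 210-58, 1.76 in line 226-47, 2.38 after PJ34 and 2.27 in wild type cells. The shape was shared (r = 0.880 for line 210-58 and 0.890 for line 226-47 against wild type over 16 probes), and no probe differed by 1 or more in the same direction in both lines. The largest differences were a higher value at the probe from 173971966 to 173972011, with 1.08 and 0.08 in lines 210-58 and 226-47 against -0.33 in wild type cells, and a lower value at the first probe, from 173970159 to 173970214, with 0.54 and -0.32 against 0.87. At this island wild type enrichment was itself modest: 20.7% of all runs were at or above it in wild type cells, whereas 3.87% were at or above the long Nespas-Gnasxl run.

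The Nesp island, whose methylation lies on the paternal copy, was above wild type upstream and below it downstream in the mean of the lines. Over all 10 probes from 173927575 to 173929217 it had 1.35 in line 210-58, 0.27 in line 226-47, 1.16 after PJ34 and 0.51 in wild type cells. The lines lay on either side of wild type, and their mean difference of 0.29 was less than their SD of 0.76. It was -0.15 with the median over probes and -0.05 after normexp, so it had no stable direction. Line 210-58 was higher than line 226-47 by 1.08, and 1.41% of all runs were that far apart (at least 1) in this direction. With a gap of 250 bp in place of 500 bp, chosen after the data were seen, the run splits in 2. The upstream 6 probes, to 173928437, had 1.30 in line 210-58 and 0.32 in line 226-47, beside 0.16 after PJ34 and -0.47 in wild type cells. The downstream 4 probes, from 173928881, had 1.41 in line 210-58 and 0.19 in line 226-47, beside 2.64 after PJ34 and 1.995 in wild type cells. The lines were thus higher than wild type by 1.29 upstream and differed by -1.19 downstream, with an SD between the lines of 0.70 and 0.86. PJ34 treated cells were also higher than wild type, by 0.64 upstream and 0.65 downstream. Within the second slide, line 226-47 differed from PJ34 treated cells by 0.15 upstream and -2.45 downstream.

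Among the upstream probes, that from 173928083 to 173928127 had 1.08 in line 210-58, 0.28 in line 226-47, -0.36 after PJ34 and -1.87 in wild type cells. Its Cy5 signal was 1116 and 676 in lines 210-58 and 226-47 and 421.5 after PJ34, against 150.2 in wild type cells. At the probe from 173928881 to 173928931 the values were 0.67, -0.18 and 1.81 in line 210-58, line 226-47 and PJ34 treated cells, against 1.73 in wild type cells. Of the 4 downstream probes, 1 was lower by at least 1 in both lines, against 2.29% of all probes. Of the 6 upstream probes, 3 were higher by at least 1 in both, against 2.36%. Since the division followed the values, nothing is read from these counts. In wild type cells the upstream probes ran from -1.87 to 1.10 with no order along the run, and in line 210-58 all 10 probes lay between 0.45 and 1.96.

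At Gnas exon 1, the start of the main transcript, the lines were somewhat higher. The 6 probes from 173973304 to 173974138 had a mean of 0.59 in line 210-58, 0.04 in line 226-47, -0.85 after PJ34 and -0.40 in wild type cells. The lines averaged 0.32 ± 0.39 (SD, n = 2), a difference of 0.72 from wild type. The difference was 0.44 after intensity loess, 0.99 in line 210-58 alone and 0.45 in line 226-47 alone. Of the 6 probes, 5 were higher in both lines, but 0 were higher by at least 1 in both, against 2.36% of all probes. The share of all probes higher in both lines by any amount was not counted. At a gap of 250 bp the run splits into its first probe, with a difference of 0.04, and the other 5, with 0.86. The largest difference was at the probe from 173973913 to 173973957, with 2.13 in line 210-58, 1.12 in line 226-47, -0.53 after PJ34 and 0.14 in wild type cells. The first probe of the run, from 173973304 to 173973348, was low on every array, at -1.55, -1.45, -1.92 and -1.54 in line 210-58, line 226-47, PJ34 treated and wild type cells.

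Against the whole array, 2 of the 5 runs were lower by at least 1 in the mean of the lines with both lines lower, as were 2.33% of all runs, and 0 of 5 were higher by the same rule, as were 1.35%. Of single probes, 25 of 57 were lower by at least 1 in both lines, against 2.29% of all probes, and 3 were higher, against 2.36%. The 25 were 24 of the Nespas-Gnasxl probes and 1 of Nesp, and the 3 lay in Nesp. Since the cluster was chosen from this contrast, nothing is read from these counts. Among the 798 other runs at 3 or above in wild type cells, the median difference of the lines was -0.29 with a 5th percentile of -1.37, and 3 fell below 1 in both lines.

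**Figure D3:**
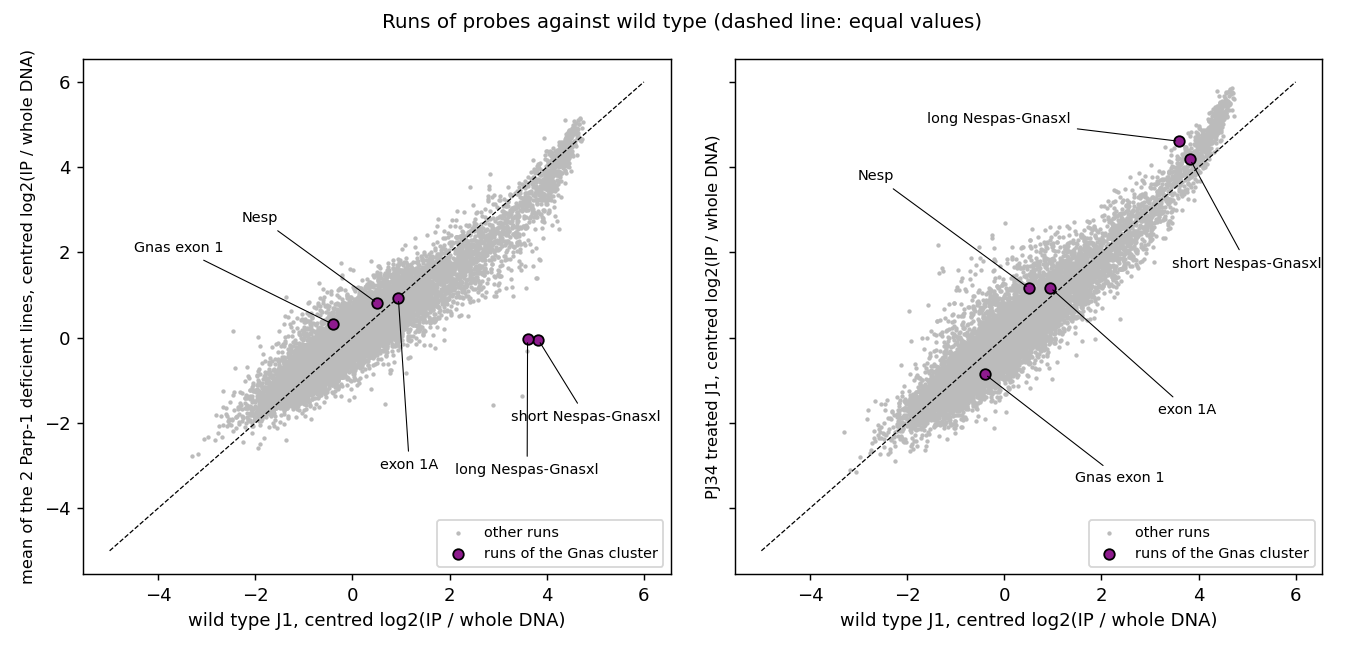
Mean centred log2 ratio of the 2 Parp-1 deficient lines (left, y axis) and of PJ34 treated cells (right, y axis) against wild type cells (x axis), with 1 point per run of at least 3 probes. The 2 Nespas-Gnasxl runs lie near 0 on the left at 3.60 and 3.82 in wild type, far below the line of equal values, and at 4.61 and 4.19 on the right.

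J1 cells given PJ34 kept the Nespas-Gnasxl enrichment. There is 1 array on each side of this comparison, so it has no test. The long run was higher than wild type by 1.003 after PJ34 (0.46 to 1.16 under the alternatives, which include parts of the run). All 22 of its probes were higher, 10 of them by at least 1. The short run differed by 0.36, but by -0.21 after intensity loess and -0.11 after scaling by the median absolute deviation. The PJ34 array had the wider profile, with a median absolute deviation of log ratios of 1.68 against 1.49 in wild type cells, and the part of this width in the result was not tested. Scaled for it, the long run was higher by 0.48. Among the 798 other runs at 3 or above in wild type the median PJ34 difference was 0.38, and 35 of them (4.39%) were higher by at least as much as the long run. Of the 5 runs, 1 was higher by at least 1 after PJ34, against 2.44% of all runs, and 0 were lower, against 1.25%. Of the 57 probes, 14 were higher by at least 1 after PJ34 and 2 were lower, against 5.73% and 7.38% of all probes. At the other runs PJ34 differed from wild type by 0.64 (Nesp), 0.23 (exon 1A) and -0.45 (Gnas exon 1).

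Each slide carried 2 arrays, line 210-58 with wild type cells and line 226-47 with PJ34 treated cells. Within the first slide the difference of line 210-58 from wild type was -3.58 at the long run and -3.96 at the short run. Within the second slide, which held no wild type array, the difference of line 226-47 from PJ34 treated cells was -4.69 and -4.14. PJ34 treated cells were themselves above wild type cells at the long run, by 1.003. The part of the slide in these differences was not tested. Nor was that of the array width, in these differences or in those between the lines. The median absolute deviation was 1.19 in line 226-47, against 1.68 after PJ34 and 1.61 in line 210-58. At exon 1A these within-slide differences were 0.30 and -0.55, at Nesp 0.83 and -0.89, and at Gnas exon 1 0.99 and 0.89. Probe by probe, 6 of the 57 were higher by at least 1 in line 210-58 than in line 226-47, against 2.93% of all probes.

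The whole DNA signal of the cluster was close to that of wild type cells on all 3 other arrays. The median Cy3 difference from wild type over the 57 probes was 0.07 in line 210-58, 0.08 in line 226-47 and 0.0039 after PJ34 on the log2 scale, beside -0.02, 0.03 and 0.0025 on the rest of chromosome 2. Single probes ranged from -0.39 to 0.67 in line 210-58, from -0.13 to 0.31 in line 226-47 and from -0.26 to 0.40 after PJ34. The short Nespas-Gnasxl run was the furthest from wild type in line 210-58, at 0.39, beside 0.13 in line 226-47 and 0.28 after PJ34.

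**Figure D4:**
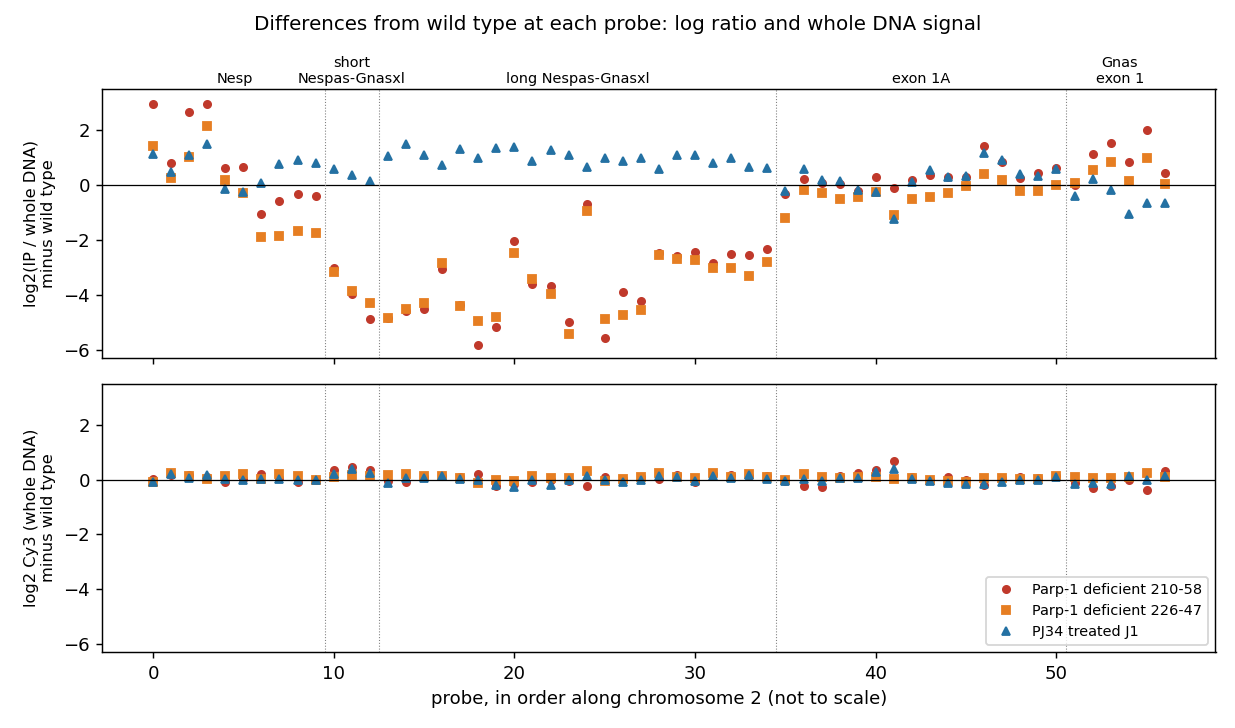
Difference from wild type in the centred log2 ratio of IP to whole DNA (upper panel) and in the centred log2 Cy3 signal of whole DNA (lower panel) at each of the 57 probes in order, on the same scale, for line 210-58, line 226-47 and PJ34 treated cells. The log ratio of both lines falls across the Nespas-Gnasxl runs, while Cy3 stays between -0.39 and 0.67 at every probe.

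Of the 3 nearest runs on each side of the cluster, only those from 173763992 and 174100147 were above 2 in wild type cells. The runs below the cluster, from 173719055, 173753115 and 173763992, differed from wild type by 0.28, -0.34 and -0.56 in the mean of the lines, and those above it, from 174058687, 174081719 and 174100147, by -0.47, 0.31 and 0.06. The run from 174100147 was highly enriched on every array, at 4.66 in line 210-58, 4.17 in line 226-47, 4.93 after PJ34 and 4.35 in wild type cells, and that from 173763992 had 2.79, 1.92, 3.002 and 2.91. The other 4 had between -0.39 and 1.06 in wild type cells. Over the 1174 other runs of chromosome 2 the median difference of the lines was 0.02.

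The runs elsewhere whose values on the 4 arrays were most like those of the short Nespas-Gnasxl run, by root mean square difference, lay on 5 other chromosomes. The closest, at a difference of 0.22, lay on chromosome 11 from 11925467 to 11926345. The next, at 0.25, covered 12584752 to 12585952 of chromosome 17. Further away were 125661363 to 125662022 of chromosome 8 (0.87), 91181853 to 91182451 of chromosome 9 (0.95) and 6333486 to 6334587 of chromosome 7 (0.96). The run on chromosome 11 had -0.12 in line 210-58, 0.11 in line 226-47, 4.58 after PJ34 and 3.65 in wild type cells, and that on chromosome 17 had -0.57, -0.03, 4.21 and 3.60 in the same order. Those on chromosomes 8 and 9 kept 1.01 to 1.38 in the lines, and the run on chromosome 7 fell further, to -1.60 and -1.13 in lines 210-58 and 226-47, against 3.49 in wild type cells.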

How the data were processed

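MeDIP DNA and whole DNA of 4 cell samples were hybridised to 2-colour CpG island arrays, 1 array per sample. The deposited scanner files hold the authors' processed Cy5 and Cy3 intensity per spot (Agilent Feature Extraction 10.7.3.1 per the file headers, 9.1 per the submitters' processing notes), already background-subtracted and dye-normalised per the file headers. The deposited ratio tables hold, within a relative 2.13e-08, the ratio of processed Cy5 to Cy3, and served only as a check. Control spots (5950), probes with no position (442) and outlier-flagged probes (30) were left out; none was saturated. Log2 ratios were centred on each array's median, with no loess or quantile step, and averaged over runs of at least 3 probes. The median raw signal was 292 to 310 (background 42 to 43) for Cy3 and 133 to 154.5 (background 56.5 to 57.5) for Cy5; the number of arrays limits the precision.

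The members and lists were chosen with earlier results of these data known. The named probes are the highest and lowest difference of each run, and the runs most alike were ranked by root mean square difference over the 4 arrays; the exon 1A probe in the middle of its run was added after its values were seen. limma 3.58.1 in R 4.3.3 (eBayes with trend, Benjamini-Hochberg) was fitted to the lines against wild type over all runs with 1 residual degree of freedom, and gives only counts over the whole array, since the cluster was chosen from that contrast. Nothing says that the lines came from separate clones, so its p-values measure only the spread between these arrays. Alternatives were normexp (on median signals, since the files hold no mean signal), intensity loess, quantile scaling, scaling by the median absolute deviation, the median over probes, other gaps and sizes, and leaving out either line.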

Additional observations from a re-analysis of the deposited data

How the results depend on the processing

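No paired analysis was possible because the labels give no shared replicate numbers and wild type and PJ34 have 1 array each. A slide block and a limma fit without either line were not run, since no residual degree of freedom is left. No result changed sign among those called. The long Nespas-Gnasxl run differed from wild type in the lines by -2.65 after normexp, -2.21 after loess, -3.88 with the median over probes, -3.69 to -3.58 without either line, -4.69 within the second slide (line 226-47 against PJ34), and -4.12 and -3.24 in its parts at a 250 bp gap, the last 2 settings chosen after seeing the data. Its PJ34 difference was 0.62 after quantile scaling, 0.46 after loess, 0.48 after scaling by the median absolute deviation, and 1.16 and 0.87 in its parts. The median Cy3 difference of the cluster, 0.0593, was 0.0953 after normexp and 0.0652 to 0.0815 without either line. The 393 limma calls over all runs became 27 with quantile scaling, 0 with loess (1891 at an unadjusted p under 0.05), 781 with scaling by the median absolute deviation and 182 without trend. The calls were 322 higher and 104 lower after normexp, against 168 and 225. The 520 runs past 1 in the lines became 156 after normexp, 100 after loess, 3209 at 0.5, and 554 to 891 without either line. The 522 past 1 after PJ34 became 99 after normexp (94 higher, 5 lower), 65 after loess, 840 with the median over probes (437 higher, 403 lower) and 3196 at 0.5, against 345 higher and 177 lower. A gap of 1000 bp joined exon 1A and Gnas exon 1 but not the Nespas-Gnasxl runs. The cause of these shifts was not tested.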
